A study of Homo sapiens with 12 samples.

Results

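The 5 listed adenosines of tRNA-Asp-GTC-3-1, a cytosolic tRNA that reads aspartate codons, were followed through the IP, dma.IP and Input fractions of tRNA m1A sequencing in DLD1 cells, an established human colorectal cancer line. They were all the sites that the deposited table listed for this tRNA, 5 of 44 sites in 29 tRNAs. OE-WT cells overexpressed TRMT6/TRMT61A, and CTRL cells, labelled wild type, carried an empty vector. Both were made by lentiviral transduction of the same line. IP libraries were enriched with an m1A antibody, and Input libraries were not enriched. The names of the dma.IP libraries carry only the letters dma, read here as a demethylase treatment. Each condition had 2 replicates in each fraction, 12 libraries in all. The sources call the cultures duplicates and say no more, so the variation between libraries may be technical. P-values of the models and permutation tests reflect only how much these libraries varied. Those of Fisher's exact test on summed reads cover counting error alone and leave out the spread between libraries. The overexpression itself was not analysed here.

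N1-methyladenosine (m1A) carries a methyl group on the edge of the base that pairs, so a reverse transcriptase tends to stop or to insert a wrong base there. TRMT61A is the catalytic subunit and TRMT6 the RNA-binding partner of the enzyme that writes m1A at position 58, in the T loop of most cytosolic tRNAs, where it helps to hold the fold of the molecule. In mammals tRNA-Asp also carries a queuosine derivative at the first anticodon base and a 5-methylcytosine written by TRDMT1 just 3′ of the base that follows the anticodon.

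The gene lies on chromosome 6 of hg38, chr6:27583457-27583528, on the minus strand. RefSeq names it TRD-GTC3-1, a tRNA gene, and no GENCODE v44 gene, exon or UTR overlapped it. The 3 tRNA-Asp-GTC entries of the table are shown because they differ at few bases, which bears on where a read can be placed. Capitals mark the adenosines that the table lists. The sequences are those of the genes, 5′ to 3′, with T for U and without the CCA end, and each matched hg38.
tRNA-Asp-GTC-3-1: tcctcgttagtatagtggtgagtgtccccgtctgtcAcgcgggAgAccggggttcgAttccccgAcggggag
tRNA-Asp-GTC-2-5: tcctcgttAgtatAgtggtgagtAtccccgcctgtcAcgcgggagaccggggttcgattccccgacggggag
tRNA-Asp-GTC-1-1: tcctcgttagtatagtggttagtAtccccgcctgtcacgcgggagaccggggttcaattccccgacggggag

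Positions count from 1 at the 5′ end. The anticodon gtc takes positions 34 to 36, and A37 (hg38 position 27583492) follows it directly. A44 (27583485) and A46 (27583483) lie in the variable region between the anticodon stem and the T arm. A57 (27583472) is the canonical A58 of the T loop, since this tRNA has 1 base fewer before it. A65 (27583464) lies 8 bases past A57, on the 3′ side. The T-loop motif GTTCGA, searched on both strands, was found on the tRNA strand at positions 52 to 57 and ends in A57, and 17 of the 29 listed tRNAs (58.6%) hold it. The looser TTCNA, which overlaps it at positions 53 to 57, was on the tRNA strand of 28 of the 29 (96.6%). The other 5 adenosines of the tRNA, at positions 9, 12, 14, 21 and 71, were not listed and have no value here.

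tRNA-Asp-GTC-2-5, an entry that stands for 11 genes, differs from tRNA-Asp-GTC-3-1 by G24A and T31C, with the base of 3-1 first. From position 32 on, the 2 sequences are identical for 41 bases, and this stretch holds all 5 listed adenosines of 3-1. tRNA-Asp-GTC-1-1 differs by G20T, G24A, T31C and G56A, the last next to A57. A read that starts after position 31 therefore matches 2-5 and 3-1 alike. In Input, reads over A24 of 2-5 came to 48.5% of the reads over its A37, and reads over A9 to 18.6%, so many reads did not reach the 5′ part of the tRNA. How the alignment placed reads that match both entries is not given in the sources used here, and all values below are those of the entry 3-1.

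The rate at each adenosine was the share of reads over it that carried a mismatch. Summed over the 44 sites, libraries held 59 to 220 reads in IP, 62 to 203 in dma.IP and 33288 to 72519 in Input. A read over several sites was counted at each, so the rates of the 5 adenosines share reads. All 44 sites had at least 1 mismatched IP read, and each of the 5 adenosines had exactly 1 over the 4 IP libraries. A site may thus have been listed for that read, and for this reason IP rates were not tested against the other fractions. tRNA-Asp-GTC-3-1 was chosen by name, with its mismatch rates and reads in all 12 libraries known.

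In Input, A37 stood far above the other listed adenosines, and A57 exceeded A44, A46 and A65 by a fraction of a percentage point. At none of the 5 did OE-WT and CTRL pass a test for a difference. A37 had 808 mismatches in 6036 reads (13.4%) and 726 in 5739 (12.7%) in the OE-WT replicates, and 397 in 2966 (13.4%) and 922 in 6654 (13.9%) in the CTRL replicates. OE-WT replicate 2 was the lowest library and CTRL replicate 2 the highest, and the other replicates were nearly level, so the groups overlapped. A37 averaged 13.0% ± 0.520 in OE-WT and 13.6% ± 0.333 in CTRL (SD, n = 2 each).

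At A57, the base that TRMT6/TRMT61A methylates, 204 of 7106 reads (2.87%) and 173 of 6876 (2.52%) were mismatched in OE-WT, against 100 of 3539 (2.83%) and 177 of 7627 (2.32%) in CTRL. The groups overlapped here too, and replicate 1 was the higher in both conditions. The means were 2.69% ± 0.251 in OE-WT and 2.57% ± 0.357 in CTRL (SD, n = 2 each). The summed reads gave an odds ratio of 1.09 for OE-WT over CTRL, with a 95% interval of 0.660 to 1.80 that includes the spread between libraries (quasi-binomial model, p = 0.539, adjusted p = 0.829 over 23 sites). Without CTRL replicate 2, the difference of 0.216 percentage points turned to -0.129.

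**Figure D1:**
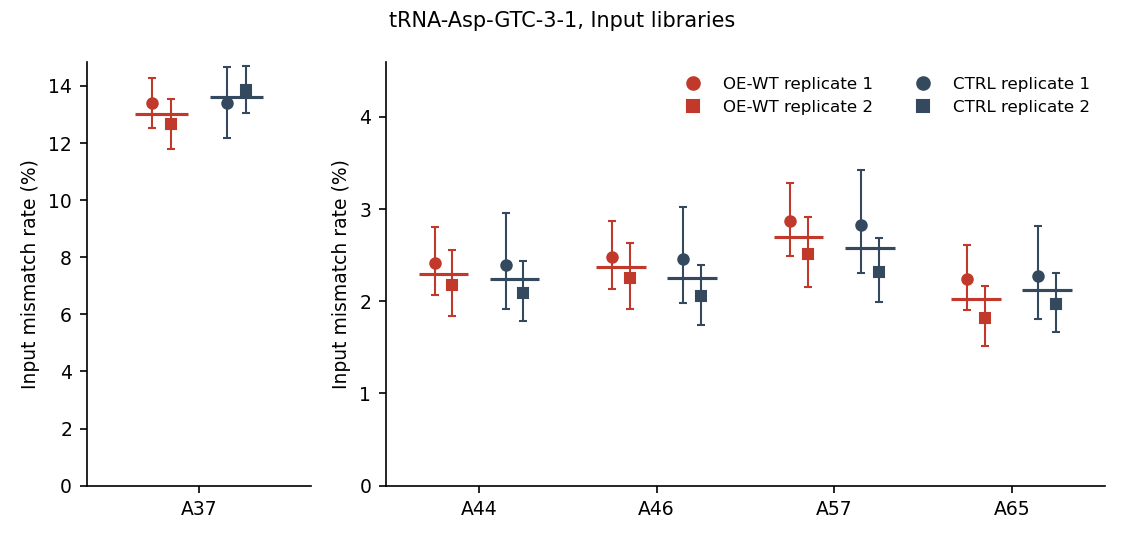
Input mismatch rate (%, y axis) at the 5 listed adenosines of tRNA-Asp-GTC-3-1 (x axis), with A37 on an axis of its own; each point is a library with its exact 95% interval for counting error, and short lines are the means of OE-WT (red) and CTRL (dark blue). A37 lies between 12.7% and 13.9% and the other 4 adenosines between 1.82% and 2.87%, with OE-WT and CTRL overlapping at every adenosine.

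The 3 adenosines around A57 had nearly the rate of A57. A44 had 2.41% and 2.18% mismatched reads in OE-WT, against 2.40% and 2.09% in CTRL. A46 had 2.48% and 2.26% in OE-WT, against 2.46% and 2.05% in CTRL. A65 had 2.24% and 1.82% in OE-WT, against 2.27% and 1.97% in CTRL. At these 3 adenosines as at A57, replicate 1 exceeded replicate 2 in OE-WT and in CTRL, 4 of the 5 adenosines, whereas at A37 this held in OE-WT only. By the quasi-binomial model 0 of the 5 adenosines were called different between OE-WT and CTRL, as were 0% of the 23 sites tested, and 0 sites had an unadjusted p under 0.05. Fisher's exact test on summed reads and limma on logit rates also called 0 of the 5. The adjusted p was 0.829 at A37, A46 and A57, 0.838 at A44 and 0.984 at A65 (quasi-binomial model).

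Within each library A57 could be set against its neighbours on the same molecule. A57 was higher than A44, A46 and A65 in 4 of 4 Input libraries. It exceeded their mean by 0.462 ± 0.0452 percentage points in OE-WT and by 0.365 ± 0.118 in CTRL (SD, n = 2 each). Their mean rate was 2.23% in OE-WT and 2.21% in CTRL, against 2.69% in OE-WT and 2.57% in CTRL at A57. The excess was 0.0976 percentage points larger in OE-WT than in CTRL, which an exact two-sided permutation test did not separate (p = 0.667, where 2 against 2 libraries cannot go below 0.333). Taken as the log2 ratio of A57 to the mean of the 3, the difference was 0.0538 for OE-WT minus CTRL. On that scale both OE-WT libraries lay above both CTRL libraries. The same permutation test gave p = 0.333, the lowest it can reach, so it could not have passed the threshold. The comparisons of the excess were chosen after the rates were seen.

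The order of the 5 adenosines was A37, A57, A46, A44 and A65. A37 was 5.10 ± 0.602 times A57 (SD, n = 4 Input libraries), and their ranges were separate. A57 exceeded A46 by 0.322 ± 0.0680 percentage points within libraries, although their ranges overlapped across libraries. A46 was above A44 in 3 of 4 libraries, by 0.0405 ± 0.0540 points, a difference smaller than its spread. A44 was above A65 in 4 of 4 libraries, by 0.195 ± 0.111 points. These values describe the tRNA and carry no test, since the comparison of A57 with the rest was part of how the tRNA was chosen.

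The depth along the molecule was even on the 3′ side. Over the 4 Input libraries, 25148 reads covered A57, 25159 A46, 24932 A44 and 25095 A65, while 21395 covered A37. Reads over A37 came to 84.2% ± 1.05 of those over A57 in OE-WT and 85.5% ± 2.43 in CTRL (SD, n = 2 each). The groups overlapped (exact two-sided permutation test, p = 0.667, where 2 against 2 libraries cannot go below 0.333).

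Of the 24 sites that reached 20 reads in all Input libraries, A37 ranked 5th by mean rate, A57 15th, A46 17th, A44 18th and A65 19th. The rate nearest to that of A57 in the other tRNAs was at tRNA-Asp-GTC-2-5 A24, with a mean absolute difference of 0.377 percentage points over 4 libraries, followed by tRNA-Val-AAC-1-1 A60 at 1.42 and tRNA-iMet-CAT-1-1 A49 at 1.51. Those 2 sites had as few as 80 and 60 reads in a library, and 0 mismatches in at least 1 library.

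Input rates were higher at the listed A58 sites of other tRNAs that had 20 or more reads in every Input library. By the A that ends TTCNA in the T loop, 7 sites of the table were at A58, A57 of tRNA-Asp-GTC-3-1 among them. This rule leaves out tRNA-iMet-CAT-1-1 A57, the A58 of an initiator tRNA whose T loop lacks the motif, which had 13.3% ± 3.05 in Input (SD, n = 4) and is named here after its value was seen. tRNA-Asp-GTC-3-1 A57 averaged 2.63% ± 0.261 (SD, n = 4), against 5.53% ± 1.38 at tRNA-Glu-TTC-4-1 A57, 6.80% ± 3.87 at tRNA-Ala-AGC-2-2 A57 and 23.1% ± 1.65 at tRNA-Gly-GCC-2-1 A56. These 3 were the other sites found by the motif with 20 or more reads in every Input library, and each was above tRNA-Asp-GTC-3-1 A57 in 4 of 4 libraries. Summed over Input, 1 of 16 reads was mismatched at tRNA-Tyr-GTA-2-1 A74, 10 of 84 at tRNA-Gln-CTG-1-4 A57 and 8 of 57 at tRNA-Gln-TTG-3-3 A57. These sites with fewer reads were above tRNA-Asp-GTC-3-1 A57 in 1, 3 and 4 of 4 libraries, in the same order. The difference between tRNAs was not tested, since tRNA-Asp-GTC-3-1 was chosen with these rates known.

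A37 could be compared with the same base of tRNA-Asp-GTC-2-5, which sits in identical sequence from position 32 on. A37 of 3-1 had 13.4% and 12.7% mismatched Input reads in OE-WT and 13.4% and 13.9% in CTRL, against 5.98% and 6.51% in OE-WT and 6.38% and 6.85% in CTRL at A37 of 2-5. The rate was higher at 3-1 in 4 of 4 libraries, by 2.08 ± 0.125 times (SD, n = 4). How reads that match both entries were placed is not given, and the part of that placement in this ratio was not tested. At A37 of 2-5, OE-WT and CTRL overlapped as well, with means of 6.24% ± 0.371 and 6.61% ± 0.330 (SD, n = 2 each). In Input, A9 and A14 of 2-5 had the highest tRNA-Asp rates of the table, 52.9% ± 2.31 and 15.8% ± 1.46 (SD, n = 4), and the adenosines at those positions of 3-1 were not listed. Which base was read in place of the adenosine is not in the table.

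**Figure D2:**
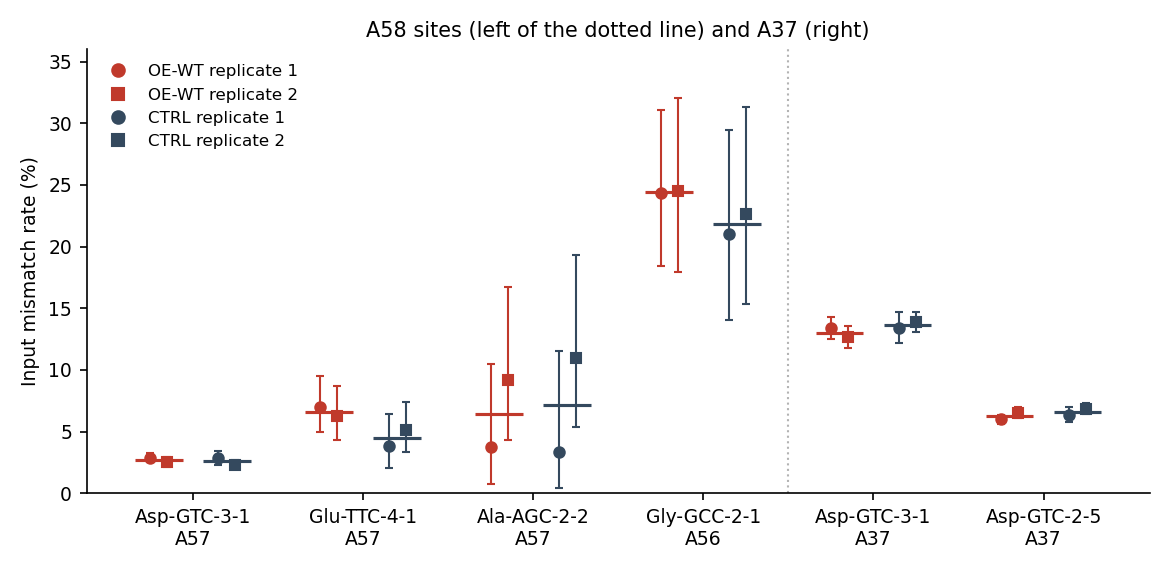
Input mismatch rate (%, y axis) at A58 of tRNA-Asp-GTC-3-1 and of the 3 other tRNAs whose A58 was found by TTCNA with 20 or more reads in every Input library, and at A37 of tRNA-Asp-GTC-3-1 and tRNA-Asp-GTC-2-5 (x axis); points are libraries with exact 95% intervals for counting error, lines are means of OE-WT (red) and CTRL (dark blue). tRNA-Asp-GTC-3-1 A57 is the lowest of these 4 A58 sites at 2.63%, and A37 of 3-1 lies at 2.08 times A37 of 2-5. How reads that match both entries were placed is not known.

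In IP, the antibody fraction that was meant to hold the methylated tRNA, too few reads fell on tRNA-Asp-GTC-3-1 to set OE-WT against CTRL. At A57, 0 of 2 and 0 of 4 reads were mismatched in the OE-WT replicates, against 0 of 3 and 1 of 6 in the CTRL replicates. At A37, 0 of 2 and 1 of 3 were mismatched in OE-WT, against 0 of 3 and 0 of 7 in CTRL. The IP mismatches at A44, A46 and A65 were 1 each, all in CTRL replicate 2, the library that also held the mismatch at A57. Whether these 4 were on 1 read cannot be told from the table.

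The mismatched read was in OE-WT at A37 and in CTRL at A57, and neither difference passed a test. At A37 the summed reads gave 1 of 5 in OE-WT and 0 of 10 in CTRL (two-sided Fisher's exact test, p = 0.333, adjusted p = 1 over 31 sites). At A57 they gave 0 of 6 in OE-WT and 1 of 9 (11.1%) in CTRL (adjusted p = 1), with a Newcombe 95% interval of -43.5 to 29 percentage points for OE-WT minus CTRL. The 0 of 6 reads allow a share of up to 50.0% (3 counts). By Fisher's exact test 0 of the 5 adenosines were called, as were 0% of the 31 sites tested, and 0 sites had an unadjusted p under 0.05. With 1 mismatched read and this few reads at each adenosine, the test could not have called any of the 5. The lack of a call therefore says nothing about a difference. The quasi-binomial model and limma on logit rates also called 0 of the 5. A rise of the IP mismatch rate at A57 in OE-WT cells was thus not detectable at this depth, and neither was a fall. The rate was taken among reads that the antibody had selected, and the m1A level of the whole tRNA pool was not measured by it.

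In dma.IP, mismatches were found at A37 only. At A37 3 of 19 and 2 of 4 reads were mismatched in the OE-WT replicates, and 1 of 2 and 3 of 9 in the CTRL replicates. All 4 libraries had at least 1 mismatch, and the summed 9 of 34 reads gave 26.5% (exact 95% interval 12.9% to 44.4%). The other 4 adenosines had 0 mismatches in 40 to 42 reads each. At A57, 0 of 41 reads were mismatched, which allows a share of up to 7.32% (3 counts) and so includes the Input rate of 2.60%. These intervals and limits, here and elsewhere, hold for counting error alone, because no molecular identifiers separate PCR copies from molecules.

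No difference between OE-WT and CTRL passed a test in dma.IP. At A37 the summed reads were 5 of 23 (21.7%) in OE-WT and 4 of 11 (36.4%) in CTRL (two-sided Fisher's exact test, p = 0.425, adjusted p = 1 over 23 sites), a difference of -14.6 percentage points with a Newcombe 95% interval of -45.4 to 14.6. Without OE-WT replicate 1 the difference was 13.6 points. By Fisher's exact test 0 of the 5 adenosines were called, as were 0% of the 23 sites tested, and 0 sites had an unadjusted p under 0.05. The test could not have called the 4 adenosines without a mismatch, nor any other of the 23 sites without a mismatch in dma.IP. The quasi-binomial model and limma on logit rates could be fitted at A37 alone, the other 4 adenosines having no mismatch in dma.IP, and did not call it.

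**Figure D3:**
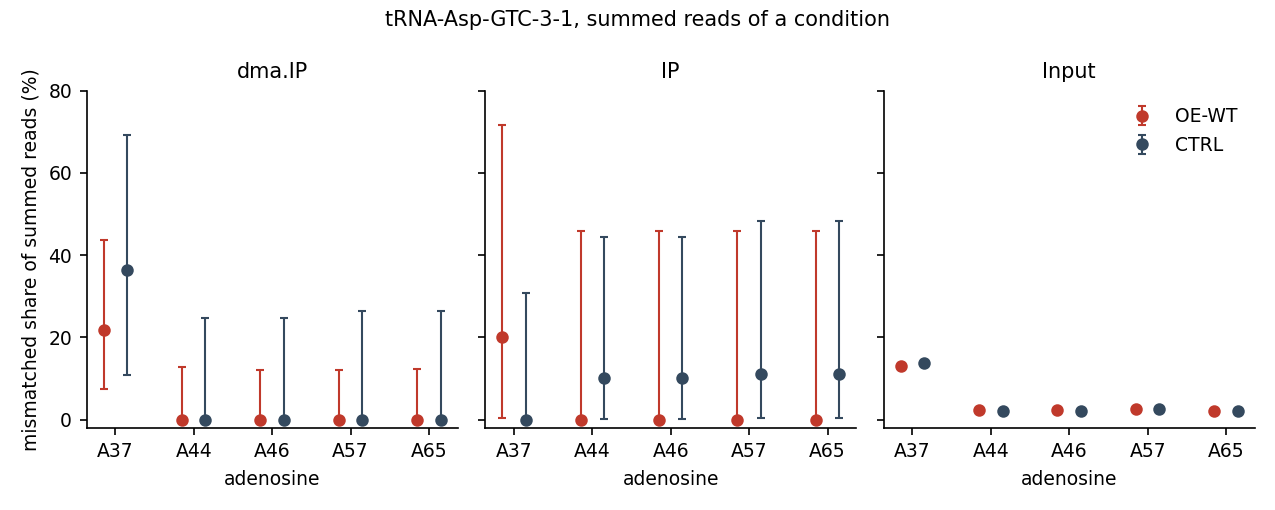
Mismatched share of the reads of a condition (%, y axis) at the 5 adenosines (x axis) in dma.IP, IP and Input; points are reads summed over 2 replicates of OE-WT (red) or CTRL (dark blue), and bars are exact 95% intervals for counting error. The IP intervals reach 30.8% or more at every adenosine, whereas the Input intervals are within the size of the points.

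The mismatch rates in dma.IP were set against those in Input. As their names are read here, these fractions differ in the antibody step as well as in the demethylase, and the comparison cannot tell the 2 apart. At A37 the dma.IP rate was 26.5%, against 13.3% in Input, higher by 13.1 percentage points. The difference was positive in 4 of 4 cultures, at 2.40 and 37.3 points in OE-WT and 36.6 and 19.5 points in CTRL. The lowest of these came from OE-WT replicate 1, which gave 19 of the 34 dma.IP reads, and without that culture the rate was 40.0% (6 of 15 reads) and the difference 26.7 points. The quasi-binomial model did not call the difference (odds ratio 2.36, 95% interval 0.867 to 6.41, p = 0.0962, adjusted p = 0.340 over 8 sites). Fisher's exact test on summed reads, which leaves out the spread between libraries, gave p = 0.0383 and an adjusted p = 0.153.

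At A57 the dma.IP rate was 0%, against 2.60% in Input, a difference of -2.60 percentage points with a Newcombe 95% interval of -2.80 to 5.97 (quasi-binomial model, adjusted p = 0.340). A44, A46 and A65 gave differences of -2.25, -2.29 and -2.05 points with the same adjusted p. With the model 0 of the 5 adenosines were called, as were 0% of the 8 sites tested, and 0 sites had an unadjusted p under 0.05. These 8 sites were the 5 adenosines themselves, A24 and A37 of tRNA-Asp-GTC-2-5, and tRNA-Glu-TTC-4-1 A57. The dma.IP rates at A44, A46, A57 and A65 could go no lower, so a fall could not have been called at this depth. A dma.IP rate at A57 lower by the whole Input rate and a dma.IP rate equal to that of Input were both within the interval.

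tRNA-Asp-GTC-3-1 took a large share of the Input reads and a small share of the IP reads. Its share was taken among the 29 listed tRNAs, each counted at its listed site with the most Input reads, A46 for this tRNA. It held 5.41% and 4.30% of the IP reads in OE-WT and 4.62% and 7.95% in CTRL, from 2, 4, 3 and 7 reads. In Input it held 26.9% and 30.8% in OE-WT and 28.4% and 30.8% in CTRL, and it ranked second of the listed tRNAs in every Input library. The IP shares were thus all below the Input shares, 5.57% ± 1.66 in IP against 29.2% ± 1.93 in Input (SD, n = 4 each).

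The edgeR log2 fold of IP over Input was -2.36, given as a description without a p, since the tRNA was chosen with these reads known and every site of the table had an IP mismatch. In this comparison edgeR called 66.7% of all tRNAs, and 11.1% of all tRNAs were called lower. The log2 folds of tRNA-Asp-GTC-2-5 (-2.67) and tRNA-Glu-TTC-2-1 (-3.20) were below that of tRNA-Asp-GTC-3-1. tRNA-Asp-GTC-3-1 ranked 3rd from the lowest of 27. The size of the fold depended on the scaling, at -6.38 with TMM factors and -7.13 with DESeq2's size factors. The median log2 fold over the tRNAs was 3.42 with library totals, -0.48 with TMM and -1.07 with DESeq2. tRNAs called were 15 higher and 3 lower with library totals, 9 and 9 with TMM, and 5 and 11 with DESeq2. Relative to the median, tRNA-Asp-GTC-3-1 stood at -5.79, -5.90 and -6.05 under the 3 scalings. IP libraries held 37 to 93 reads of the listed tRNAs. The part of the listing in this fold was not tested.

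Whether the lower share in IP differed between OE-WT and CTRL was tested as an interaction. The log2 difference of the IP over Input ratio was -0.47 for OE-WT minus CTRL and was not called by edgeR (adjusted p = 0.748). The test called 0% of the 27 tRNAs, with 2 tRNAs at an unadjusted p under 0.05. In Input the share of reads averaged 28.8% ± 2.80 in OE-WT and 29.6% ± 1.67 in CTRL (SD, n = 2 each). The log2 fold of -0.038 was not called by edgeR (adjusted p = 0.865). The test called 0% of the 26 tRNAs, with 1 tRNA at an unadjusted p under 0.05. The sign of this fold turned with TMM (0.23) and DESeq2 (0.20).

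dma.IP lay between the other fractions. The share was 22.7% and 7.95% in OE-WT and 17.5% and 6.06% in CTRL, from 22, 7, 11 and 2 reads. The libraries spread widely within both conditions, and the mean of 13.5% ± 7.88 (SD, n = 4) had 2 libraries within the range of the IP shares and none within that of Input.

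Among the tRNA-Asp-GTC reads, tRNA-Asp-GTC-3-1 made up 30.5% and 35.2% in OE-WT Input and 33.8% and 35.0% in CTRL Input. The entries were counted at unlike positions, A46 for 3-1, A37 for 2-5 and A24 for 1-1, and depth fell toward the 5′ end. Both A46 and A37 lie where 2-5 and 3-1 are identical, and how such reads were placed is not given. The part of position and placement in these shares was not tested. The 3 tRNA-Asp-GTC entries together held 84.1% to 88.2% of the reads of listed tRNAs in Input, against 11.8% to 29.7% in IP.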

How the data were processed

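Per the methods of the study and the labels, small RNA was de-aminoacylated, sequenced, trimmed with cutadapt 1.9.3 (reads of 15 nt or more), aligned with Bowtie2 to a tRNA library carrying CCA ends, and counted with SAMtools. How mismatches were called, how sites were chosen and when the demethylase acted are not given in the sources used here. The authors deposited, per site and library, the count of reads and the count of mismatched reads, not normalized. The deposited mismatch rate is a fraction, and all 528 rates equalled the ratio of the 2 counts (tolerance 1e-09). The authors' IP minus dma.IP difference and ratio per culture were not used.

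Libraries were grouped by their labels. Input rates needed 20 reads in every library and dma.IP against Input rates 20 summed reads in each fraction. Both used a quasi-binomial logistic model with a two-sided F test, the dispersion held at 1 or above, and condition as a covariate for dma.IP against Input. In IP and dma.IP, summed reads were compared by Fisher's exact test, which covers counting error alone. Reads per tRNA (10 or more in sum, library totals as sizes) were tested with edgeR 4.0.16. All p-values were Benjamini-Hochberg adjusted over the sites or tRNAs of a test, with a threshold of 0.05. Alternatives used limma 3.58.1, DESeq2 1.42.0, other minimums and a replicate block. Shares have exact Clopper-Pearson 95% intervals. R 4.3.3, Python 3.11.15, SciPy 1.17.1 and matplotlib 3.10.9 were used. The quasi-binomial test of Input rates was run on simulated data. So were the edgeR tests of IP over Input and of OE-WT over CTRL in Input, but not the other tests.

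Input replicates were not copies (chi-square 940 with 43 degrees of freedom in OE-WT and 432 with 42 in CTRL). The same test separated the replicates in IP and in OE-WT dma.IP. It did not in CTRL dma.IP, where reads were few (chi-square 33.4 with 25 degrees of freedom, p = 0.122). Sites share reads, which the test leaves out. Named were all listed adenosines of the tRNA, the A58 sites (TTCNA), the other tRNA-Asp-GTC sites, the 3 sites closest to A57 in Input rate, and tRNAs on which a result turned. Members and lists were chosen with earlier results of these data known.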

Additional observations from a re-analysis of the deposited data

How the results depend on the processing

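Over 28 results, 204 of 215 values under other settings neither changed sign nor crossed the threshold. No alternative called an adenosine that it could test. In dma.IP the quasi-binomial, block and limma fits covered A37 alone. The log2 fold of IP over Input reads was -2.62 to -2.20 with a culture left out.

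The other 11 values changed sign, all of results that were not called. In Input, OE-WT minus CTRL at A57 was -0.13 to 0.39 percentage points with a library left out, at A44 -0.0989 to 0.226, at A46 -0.0929 to 0.315 and at A65 -0.246 to 0.171. At A37 in dma.IP the difference was -28.3 to 13.6. The log2 fold of Input reads was 0.23 with TMM factors, 0.20 with DESeq2 and -0.141 to 0.058 with a library left out; the cause was not tested.

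Same-numbered deviations of OE-WT and CTRL hardly correlated (r = 0.0592 over 23 sites, 0.0960 over 26 tRNAs). This cannot exclude a pairing, since sites with few reads weigh as much as deep ones. At A44, A46, A57 and A65 replicate 1 was the higher in both conditions. The fit with a replicate block changed no call, with 0 adenosines called. It gave 0.120 percentage points at A57 in Input and a log2 fold of -2.40 for IP over Input. Without OE-WT replicate 1, dma.IP reads at A37 (15), A44 (18), A57 (19) and A65 (19) were under 20, and dma.IP against Input was tested at A46 alone. The excess of A57 was 0.0141 to 0.181 points larger in OE-WT with a library left out; these settings were chosen after seeing the data. IP and dma.IP reads, 2 to 22 per library at A57, limit every comparison there.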
